A study of Mus musculus with 12 samples.

Results

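Auxiliary subunits of potassium channels were followed through 3 preparations of adult mouse dorsal root ganglia (DRG). The group was defined by gene symbol, without use of any measured value, and all 10 symbols were found among the 24490 genes of the deposited table. It holds the 4 KChIP genes Kcnip1, Kcnip2, Kcnip3 and Kcnip4, the 3 Kv beta genes Kcnab1, Kcnab2 and Kcnab3, the BK channel beta subunit gene Kcnmb1, and the dipeptidyl peptidase-like genes Dpp6 and Dpp10. Every sample came from adult male C57Bl/6 mice, with DRG taken from all spinal levels and polyadenylated RNA sequenced. The Intact group held whole ganglia of 1 mouse per sample, the Dissociated group held acutely dissociated, unsorted cells of 2 mice per sample, and the MACS group held cells of 8 pooled mice per sample after magnetic cell sorting, with 4 samples in each group. No treatment or genotype separated the groups. Sorting was by negative selection, in which non-neuronal cells were labelled with antibodies and held back on a column. The study describes that dissociation lyses some cells, larger neurons among them, and that sorted preparations are enriched for small cells, so the MACS group does not stand for all DRG neurons. Values are FPKM, fragments per kilobase of transcript scaled to the mapped fragments of each sample, so that levels of different genes are per unit of length.

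Potassium channels are built from pore-forming alpha subunits and from auxiliary subunits, which do not conduct but set how many channels reach the membrane and how they gate. KChIPs are calcium-binding cytoplasmic proteins that join Kv4 alpha subunits, and the single-pass membrane proteins DPP6 and DPP10 join the same complexes, which carry the A-type current of subthreshold voltages. Kv beta subunits are cytoplasmic proteins related to aldo-keto reductases that bind Kv1 channels, and some of them add fast inactivation. BK beta subunits change the calcium and voltage sensitivity of the large-conductance channel encoded by Kcnma1. In DRG neurons these currents set firing threshold and spike repolarization.

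Because the members form families of related genes, their coding sequences were first compared, as reads of 100 bases could in principle be shared between them. Over aligned coding sequence, the KChIP genes were between 65.7% and 72.4% identical, the Kv beta genes between 65.7% and 74.6%, and Dpp6 and Dpp10 57.5%. The longest run of identical bases between annotated protein-coding transcripts of any pair was 26, between Kcnab1 and Kcnab2. In the most similar ungapped stretch of 100 aligned coding bases, that pair still differed at 13 positions, and every other pair differed at 16 or more. The stretches below are the 100 aligned coding bases in which the fewest positions differed over all members of a family together. In the KChIP and Kv beta families a single pair can be closer in another stretch, so these are not the stretches most open to shared reads. Capitals mark positions at which at least 1 member of the family differs. In the KChIP genes 35 of the 100 positions differed, and the stretch joins 2 exons in each gene. It lies within chr11:33634644-33642490 for Kcnip1, chr19:45794264-45794539 for Kcnip2, chr2:127460048-127460492 for Kcnip3 and chr5:48396716-48398538 for Kcnip4, all on the minus strand of mm10.
Kcnip1: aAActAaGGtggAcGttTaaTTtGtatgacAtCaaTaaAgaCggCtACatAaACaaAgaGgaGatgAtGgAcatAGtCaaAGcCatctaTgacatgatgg
Kcnip2: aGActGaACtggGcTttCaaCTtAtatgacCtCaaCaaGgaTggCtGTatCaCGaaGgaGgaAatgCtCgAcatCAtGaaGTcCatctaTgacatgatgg
Kcnip3: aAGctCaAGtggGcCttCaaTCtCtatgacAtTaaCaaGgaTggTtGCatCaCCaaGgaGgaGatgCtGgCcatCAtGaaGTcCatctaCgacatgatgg
Kcnip4: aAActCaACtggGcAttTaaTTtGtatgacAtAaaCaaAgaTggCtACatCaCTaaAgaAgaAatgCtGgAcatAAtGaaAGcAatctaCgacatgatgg

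In the Kv beta genes 24 of the 100 positions differed. The stretch lies in 1 coding exon of each gene, at chr3:65357041-65357140 on the plus strand for Kcnab1, chr4:152395127-152395226 on the minus strand for Kcnab2 and chr11:69331070-69331169 on the plus strand for Kcnab3.
Kcnab1: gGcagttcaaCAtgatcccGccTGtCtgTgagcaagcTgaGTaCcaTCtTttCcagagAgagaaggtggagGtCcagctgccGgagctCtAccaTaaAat
Kcnab2: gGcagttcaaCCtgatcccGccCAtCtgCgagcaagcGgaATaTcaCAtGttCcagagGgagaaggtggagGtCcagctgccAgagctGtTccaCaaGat
Kcnab3: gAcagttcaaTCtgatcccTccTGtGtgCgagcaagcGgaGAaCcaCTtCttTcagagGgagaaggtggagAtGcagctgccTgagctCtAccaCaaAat

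Dpp6 and Dpp10 also differed at 24 positions in their most similar stretch, which lies in the second exon of the transcript used for each, at chr5:27382770-27382869 on the plus strand for Dpp6 and chr1:123905062-123905161 on the minus strand for Dpp10.
Dpp6: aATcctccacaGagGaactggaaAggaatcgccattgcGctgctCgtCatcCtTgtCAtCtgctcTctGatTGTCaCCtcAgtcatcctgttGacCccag
Dpp10: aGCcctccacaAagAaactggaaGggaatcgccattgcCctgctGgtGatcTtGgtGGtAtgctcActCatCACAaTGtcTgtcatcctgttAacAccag

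In the deposited table, Kcnip1 runs over chr11:33629341-33993193 and encloses Kcnmb1, which lies at chr11:33963013-33973638 on the opposite strand. In the GENCODE annotation of mm10 the 2 genes share no exon base, and Kcnmb1 falls in the intron that follows the outermost exon of Kcnip1. The strand setting used in counting is not given in the sources used here, although the library kit marks strand. Exon overlaps with other annotated genes were short. Kcnip4 shares 168 exon bases with 5730480H06Rik on the opposite strand, a gene listed at 0 in every sample, and Kcnab3 shares 147 bases with the antisense gene Kcnab3os. Kcnab1 shares 201 bases with the antisense gene A330015K06Rik. Kcnip4 also shares 99 bases with the antisense gene Gm20700, and Kcnab2 shares 125 bases with Gm16334 on its own strand.

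**Figure D1:**
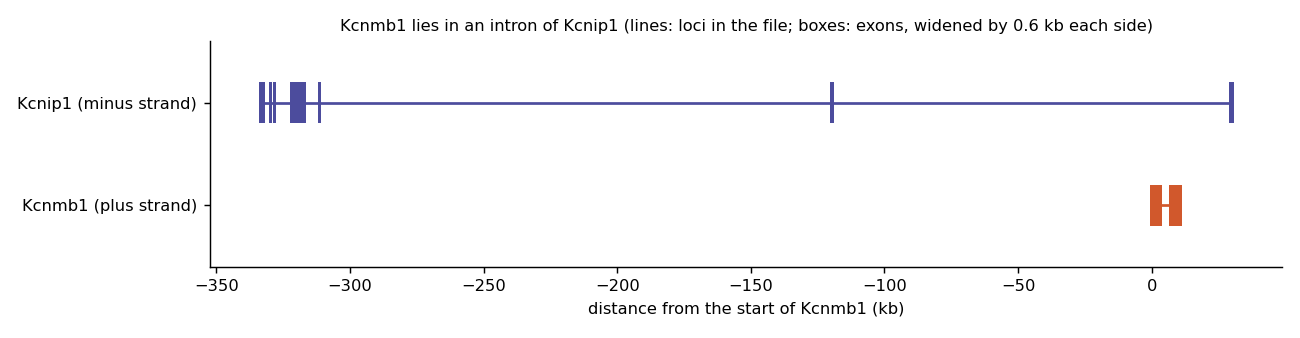
Map of Kcnip1 and Kcnmb1, with distance from the start of Kcnmb1 in kb on the x axis and 1 gene per row. Lines are the loci of the deposited table and boxes are annotated exons, widened so that they can be seen. The locus of Kcnmb1 lies wholly inside that of Kcnip1 and overlaps none of its exons.

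Before the results, the samples themselves were compared. Summed FPKM lay between 283676 and 345341, with the highest value in Intact replicate 1 and the other Intact samples between 283676 and 293648. By the spacing of low FPKM values, with fragments of 150 bases assumed, samples held an estimated 16100000 to 19200000 fragments in Intact, 15500000 to 18200000 in Dissociated and 13400000 to 16900000 in MACS. Intact replicate 1 stood apart, with a median absolute log2 difference of 0.29 to 0.32 from the other Intact samples, which differed among themselves by 0.08 to 0.09. It was the lowest Intact sample for 8 of the 10 members. Dissociated replicates 1 and 2 were the closest pair, at 0.05, and were kept as 2 samples. The globin genes took 0.53%, 0.77%, 4.03% and 5.00% of the summed FPKM of MACS replicates 1 to 4, and MACS replicate 4 was the lowest MACS sample for 8 of the 10 members. From Dissociated to MACS, all 8 markers of large DRG neurons were lower at adjusted p, with 7 called by the criteria given below, and their summed level went from between 2014 and 2411 FPKM to between 386 and 555 FPKM. Among 9 markers of small nociceptors 8 were called higher. Called lower were 6 of 7 markers of satellite glia, 6 of 7 of Schwann cells and 5 of 6 of fibroblasts, while among 8 general neuronal markers 1 was called higher and 1 lower. Red blood cell markers were called higher in 7 of 8 cases. None of 6 endothelial markers passed in limma, adjusted or at an unadjusted p under 0.05, and the 1 macrophage marker tested was lower at adjusted p. In bulk samples, fewer cells of a type and less RNA per cell cannot be told apart.

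All members but Kcnab3 were expressed above 5 FPKM in all 4 Intact and all 4 Dissociated samples. In the MACS group the same held, except that Kcnip1 exceeded 5 FPKM in 1 of 4 samples. In Intact DRG, Kcnab2 was the most abundant member at 206 ± 21.8 FPKM (SD, n = 4), above 98.7% of genes averaging 1 FPKM or more. Kcnip4 followed at 78.7 ± 6.68, Dpp6 at 77.0 ± 13.0, Kcnip3 at 63.8 ± 4.27, Kcnab1 at 55.9 ± 2.56, Kcnip2 at 51.2 ± 6.41 and Dpp10 at 42.9 ± 4.28 FPKM (SD, n = 4). From Kcnip4 down to Dpp10, each of these neighbours overlapped with the next in its range over samples. Kcnip1 at 11.2 ± 1.13, Kcnmb1 at 7.30 ± 0.63 and Kcnab3 at 0.74 ± 0.11 FPKM (SD, n = 4) each lay below the gene before them without overlap. In the MACS group the order was Kcnab2 (204 FPKM), Kcnip4 (154), Dpp6 (104), Kcnip2 (102), Dpp10 (79.5), Kcnab1 (71.7), Kcnip3 (38.9), Kcnmb1 (14.7), Kcnip1 (4.48) and Kcnab3 (0.28). Only the steps from Dpp6 to Kcnip2, from Kcnip2 to Dpp10 and from Dpp10 to Kcnab1 overlapped there.

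**Figure D2:**
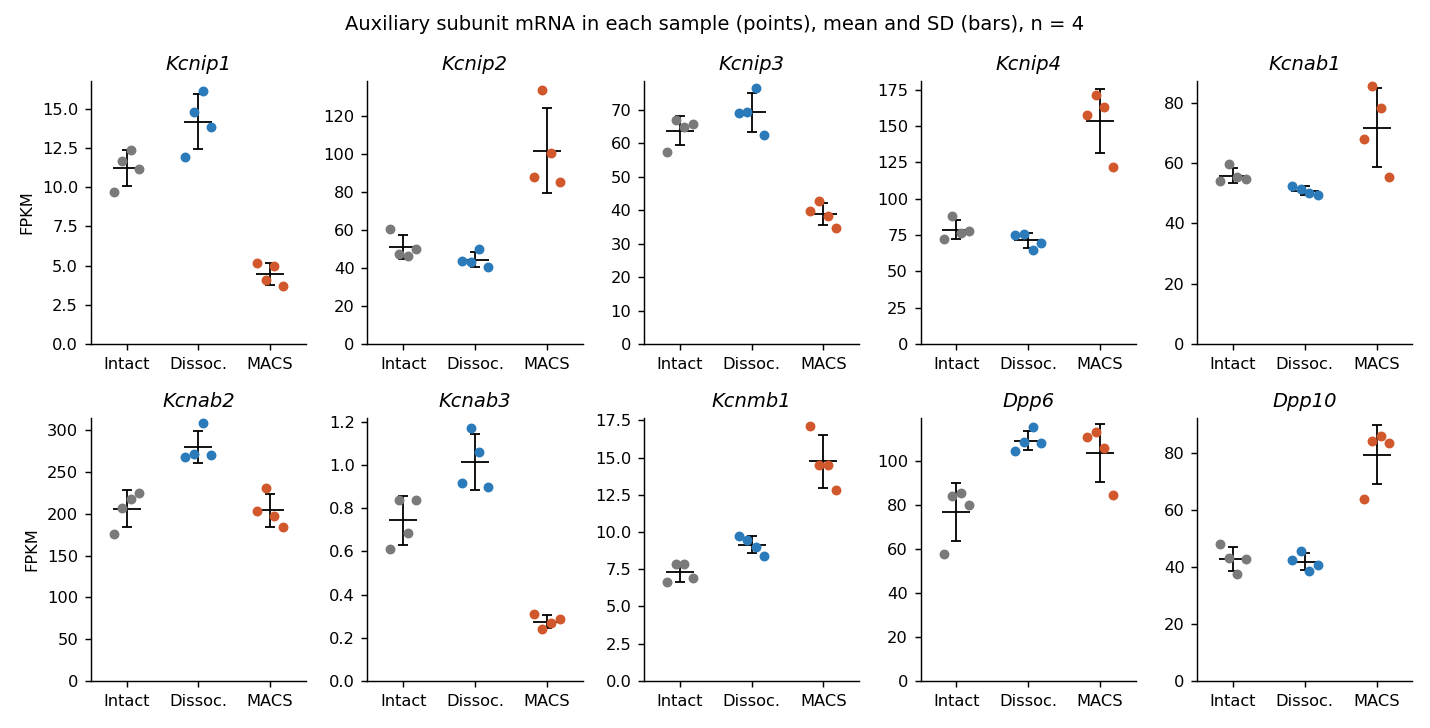
FPKM of the 10 members in each of the 12 samples, with 1 panel per gene, the 3 groups on the x axis and FPKM from 0 on the y axis. Points are samples in the order of their replicate numbers, and black bars are the mean and SD of 4 samples. Kcnip2, Kcnip4, Kcnmb1 and Dpp10 lie highest in the MACS group, and Kcnip1, Kcnip3 and Kcnab3 lie lowest there.

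The comparison of MACS with Dissociated samples asked which genes distinguish sorted neurons from the whole dissociated preparation. Kcnip2, Kcnip4, Kcnmb1 and Dpp10 were higher in MACS samples, by between 1.61 and 2.29 times in mean FPKM, while Kcnip1 was 3.16 and Kcnip3 1.78 times lower. A gene was called when limma gave an adjusted p under 0.05 (two-sided, Benjamini-Hochberg over all 12038 genes tested), when the log2 ratio of group means was beyond 0.5, and when the higher group had a mean above 5 FPKM. Of the 10 members 9 reached the minimum mean of 1 FPKM for a test, and 4 were called higher and 2 lower. Over all genes tested, 8.15% were called higher and 12.5% lower. At adjusted p alone, 5 members were higher and 3 lower, where all genes gave 18.8% and 27.7%. The same 8 members did not overlap between the groups, as did 18.4% of all genes on the higher side and 27.8% on the lower. The median log2 fold change of the 9 members was 0.48, and that of all genes tested was −0.04.

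The KChIP genes, whose products are the cytoplasmic partners of Kv4 channels, did not change in one direction. Kcnip2, which encodes KChIP2, was at 43.5, 43.0, 49.9 and 40.8 FPKM in Dissociated replicates 1 to 4 and at 87.8, 134, 100.3 and 85.1 FPKM in MACS replicates 1 to 4. Every MACS sample lay above every Dissociated sample. The log2 fold change, on the scale of log2(FPKM + 0.1), was 1.18 (standard error, SE, 0.14, adjusted p = 9.8e-05, limma). Kcnip4, which encodes the isoform KChIP4, was at 75.4, 75.8, 64.6 and 69.7 FPKM in Dissociated and at 158, 171, 163 and 122 FPKM in MACS samples. The groups did not overlap, and the log2 fold change was 1.09 (SE 0.11, adjusted p = 4.0e-05, limma). These 2 genes lay above 97.7% and 97.2% of all genes tested by their log2 fold change.

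Kcnip1, which encodes KChIP1, was at 11.9, 14.8, 16.1 and 13.9 FPKM in Dissociated and at 5.17, 4.06, 5.00 and 3.70 FPKM in MACS samples. All MACS samples were below all Dissociated samples, with a log2 fold change of −1.64 (SE 0.13, adjusted p = 1.1e-05, limma). Kcnip3 encodes KChIP3, a protein also known as DREAM or calsenilin for its roles as a calcium-dependent transcriptional repressor and a presenilin partner. It was at 68.9, 69.4, 76.5 and 62.4 FPKM in Dissociated and at 39.8, 42.7, 38.4 and 34.6 FPKM in MACS samples. It fell in every MACS sample relative to every Dissociated sample, with a log2 fold change of −0.83 (SE 0.09, adjusted p = 4.5e-05, limma). Most markers of large neurons, satellite glia and Schwann cells were lower in the same comparison, with the counts given above, and their part in the decrease of Kcnip1 and Kcnip3 was not tested. Of the 9 markers of small nociceptors, the 8 called higher moved in the direction of Kcnip2 and Kcnip4, with log2 fold changes of up to 1.03. Of these, 7 were without overlap, while Trpv1 overlapped between the groups (0.48, adjusted p = 0.048, limma). Calca was not called (log2 fold change −0.13, adjusted p = 0.46, limma). The part of small nociceptors in the rise of Kcnip2 and Kcnip4 was not tested either.

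Differences of change between members of a family were tested directly on the log2 ratio of the 2 genes within each sample, with an exact two-sided permutation test of 4 against 4 samples over 10 pairs, for which the smallest p possible is 0.0286. In the KChIP family, 5 of 6 pairs changed unequally, each with p = 0.0286 from the exact test and 0.0317 after Benjamini-Hochberg adjustment. The 6 pairs share 4 genes that were each already separate between the groups, so they are not independent. For each pair of a gene that rose with a gene that fell, this separation fixed p at its smallest value beforehand. Only Kcnip1 over Kcnip3 and Kcnip2 over Kcnip4 could have come out otherwise. How often other pairs of genes would pass was not computed, so the count is no trait of this family. Kcnip1 over Kcnip2 fell by 2.82 on the log2 scale and Kcnip3 over Kcnip4 fell by 1.93. The ratio of the 2 genes that fell also moved, with Kcnip1 over Kcnip3 lower by a log2 difference of −0.81. The ratio of the 2 that rose, Kcnip2 over Kcnip4, differed by 0.08 (exact permutation p = 0.63), with overlapping samples. The summed FPKM of the family was 199 ± 8.83 in Dissociated and 299 ± 44.0 in MACS samples (SD, n = 4). Within that sum, Kcnip4 made up 35.9% ± 3.16 in Dissociated and 51.5% ± 2.68 in MACS samples, and Kcnip2 22.2% ± 1.28 and 33.9% ± 3.27 (SD, n = 4). Kcnip3 went from 34.8% ± 1.53 to 13.1% ± 0.94 and Kcnip1 from 7.11% ± 0.79 to 1.52% ± 0.27 of the family sum (SD, n = 4). These shares are a description and were not tested.

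**Figure D3:**
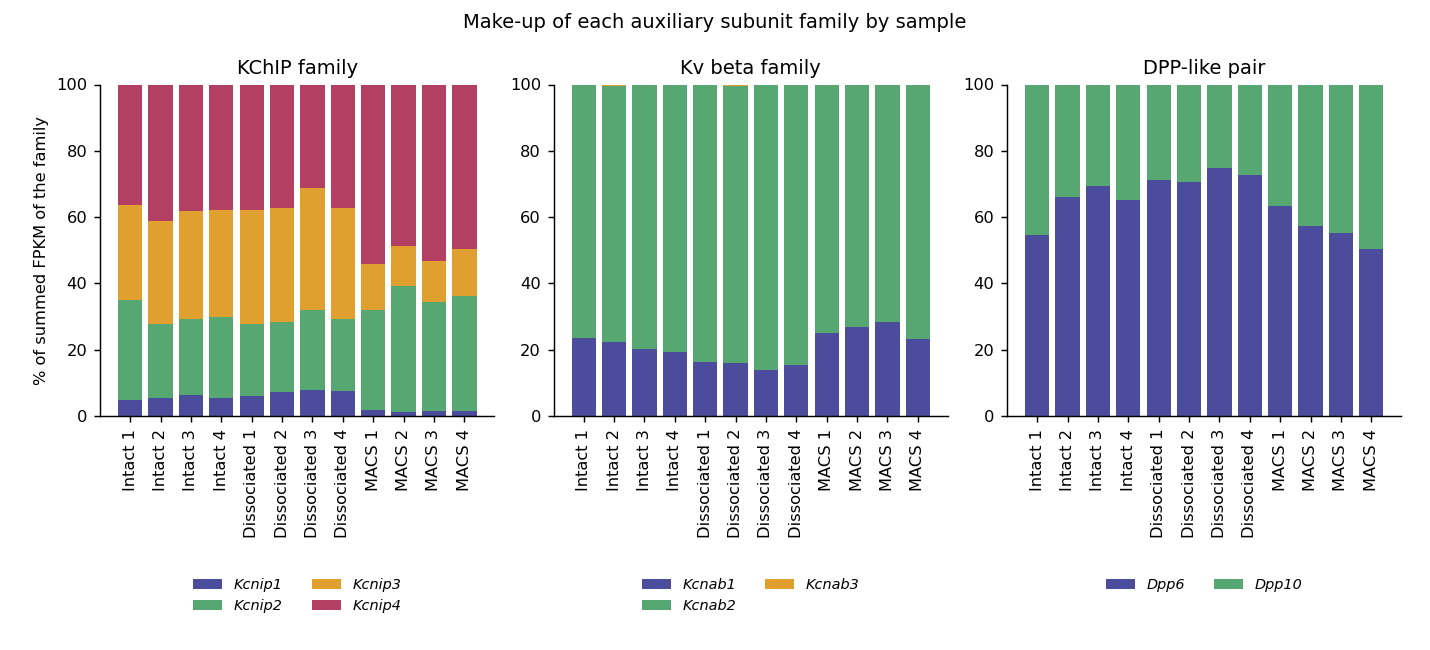
Share of each member in the summed FPKM of its family, in percent on the y axis, for each of the 12 samples on the x axis. Colours are the genes of the KChIP family, the Kv beta family and the DPP-like pair, and Kcnab3 is too low to be seen. The part of Kcnip1 and Kcnip3 is smaller in every MACS sample than in any other sample, and that of Kcnab1 and Dpp10 is larger in MACS than in Dissociated samples.

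As the 4 KChIP genes moved in both directions, the promoter windows of RefSeq were read for them, from 250 bases before to 50 after the start, in build GRCm38.p6. Of the 10 members 9 have an entry, and for 8 of them, including all 4 KChIP genes, an entry starts at the outer end of the deposited locus. That entry is shown, although Kcnip1, Kcnip3 and Kcnip4 have further entries, the deposited table gives Kcnip2 more than 1 start as well, and the gene-level FPKM do not tell which start was used. The windows are chr11:33993144-33993443 for Kcnip1, chr2:127522045-127522344 for Kcnip3, chr19:45816014-45816313 for Kcnip2 and chr5:49285610-49285909 for Kcnip4, all on the minus strand, with the genes that fell first. Capitals mark matches, on either strand, to 5 motifs, none of which overlap each other here. The TATA box was searched as TATAAA. The so-called CAAT element, bound by NF-Y, was searched as CCAAT. The box bound by Sp1 and related factors was searched as GGGCGG. The cyclic AMP response element was searched as TGACGTCA, and the E-box of basic helix-loop-helix factors as CACGTG.
Kcnip1: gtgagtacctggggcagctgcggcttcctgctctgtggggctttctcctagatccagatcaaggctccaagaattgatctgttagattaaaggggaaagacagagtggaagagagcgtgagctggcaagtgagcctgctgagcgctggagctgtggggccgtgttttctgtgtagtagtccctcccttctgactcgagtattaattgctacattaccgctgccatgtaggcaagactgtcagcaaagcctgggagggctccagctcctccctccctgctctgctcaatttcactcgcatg
Kcnip3: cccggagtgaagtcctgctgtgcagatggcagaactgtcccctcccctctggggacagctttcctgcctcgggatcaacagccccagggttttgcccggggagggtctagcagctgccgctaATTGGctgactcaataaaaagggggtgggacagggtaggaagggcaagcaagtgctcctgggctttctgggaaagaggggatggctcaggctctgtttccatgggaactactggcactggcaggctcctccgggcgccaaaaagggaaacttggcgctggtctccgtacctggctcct
Kcnip2: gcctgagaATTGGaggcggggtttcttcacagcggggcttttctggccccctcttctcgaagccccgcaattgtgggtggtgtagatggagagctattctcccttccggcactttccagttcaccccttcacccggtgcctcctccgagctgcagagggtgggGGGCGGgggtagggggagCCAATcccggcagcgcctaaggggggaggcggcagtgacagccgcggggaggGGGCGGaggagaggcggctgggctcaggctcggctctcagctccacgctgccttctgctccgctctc
Kcnip4: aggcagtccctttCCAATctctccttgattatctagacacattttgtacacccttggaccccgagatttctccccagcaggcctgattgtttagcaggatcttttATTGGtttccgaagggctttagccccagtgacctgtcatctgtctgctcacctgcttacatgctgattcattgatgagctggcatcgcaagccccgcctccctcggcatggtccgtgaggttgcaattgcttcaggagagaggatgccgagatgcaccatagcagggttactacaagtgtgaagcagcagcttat

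The window printed for Kcnip1 held no match, that of Kcnip3 held 1 NF-Y motif, that of Kcnip2 held 2 NF-Y and 2 Sp1 motifs, and that of Kcnip4 held 2 NF-Y motifs. Among all 32851 promoter windows, 37.4% hold the NF-Y motif, 35.7% the Sp1 motif, 13.6% a TATA box, 7.15% an E-box and 1.79% a cyclic AMP response element. The window of Kcnip2 had a GC content of 67.0% with 18 CpG dinucleotides, and those printed for Kcnip1, Kcnip3 and Kcnip4 had 54.3%, 60.3% and 51.0% with 7, 8 and 7 CpG. The median window holds 7. The further windows differed from the printed ones. Kcnip1 has one of 66.7% GC with 16 CpG, 1 NF-Y and 1 Sp1 motif, and one of 45.3% GC with 4 CpG and 1 NF-Y motif. Kcnip3 has one of 73.3% GC with 28 CpG, 1 NF-Y and 2 Sp1 motifs, and one of 58.0% GC with 4 CpG and 1 Sp1 motif. The further window of Kcnip4 has 59.7% GC, 7 CpG and no match. Over all windows read, NF-Y and Sp1 motifs were found both in a gene that rose and in genes that fell. These matches describe the letters of the windows and say nothing of factor binding.

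The DPP-like genes encode the membrane partners of the same Kv4 complexes. Dpp10 was at 42.6, 45.6, 38.7 and 40.5 FPKM in Dissociated and at 64.0, 84.1, 86.1 and 83.7 FPKM in MACS samples, so that the groups were separate. It rose with a log2 fold change of 0.92 (SE 0.10, adjusted p = 7.6e-05, limma). Dpp6 was at 105, 109, 116 and 108 FPKM in Dissociated and at 111, 113, 106 and 84.8 FPKM in MACS samples. These overlapped, and its log2 fold change of −0.08 had a 95% interval of −0.30 to 0.13 (adjusted p = 0.50, limma). The ratio of Dpp6 to Dpp10 was lower in all MACS samples and fell by 1.0 on the log2 scale (exact permutation p = 0.0286, the smallest possible, and 0.0317 adjusted). Dpp10 thereby made up 43.4% ± 5.44 of the pair in MACS and 27.7% ± 1.98 in Dissociated samples (SD, n = 4).

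Among the Kv beta genes, Kcnab2 encodes Kv beta 2, which promotes surface and axonal expression of Kv1 channels without strong inactivation of its own. Its FPKM were 268, 272, 309 and 270.2 in Dissociated and 204, 231, 198 and 184 in MACS samples. It fell at adjusted p (log2 fold change −0.46, standard error 0.09, adjusted p = 0.0020, limma) but missed the fold criterion for a call. Kcnab1 encodes Kv beta 1, whose N-terminus can plug the pore of Kv1 channels and convert a sustained current into a transient one. It was at 52.5, 51.5, 49.9 and 49.4 FPKM in Dissociated and at 67.8, 85.4, 78.3 and 55.5 FPKM in MACS samples, above them in all 4. Its log2 fold change was 0.48 (SE 0.12, adjusted p = 0.0088, limma), and its log2 ratio of group means, 0.497, lay just under the limit of 0.5. Leaving out Dissociated replicate 1 or 2, or MACS replicate 1 or 4, made Kcnab1 a call (log2 fold change 0.49, 0.48, 0.50 and 0.60). So did median-ratio size factors (0.54), quantile normalization (0.50) and averaging of Dissociated replicates 1 and 2 (0.49). Removal of red blood cell genes, with samples rescaled to the same summed FPKM, also did (0.52), which makes 8 of 19 alternatives. Leaving out MACS replicate 2 made Kcnab2 a call (−0.52).

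Kcnab3, which encodes Kv beta 3, was under the minimum for the fit, and its level was compared by itself. It was at 0.92, 1.17, 1.06 and 0.90 FPKM in Dissociated and at 0.31, 0.24, 0.27 and 0.29 FPKM in MACS samples. The MACS samples were all lower, with a log2 ratio of group means of −1.88 (exact two-sided permutation p = 0.0286, the smallest possible). At the estimated depth these levels rest on about 33 to 51 fragments per Dissociated and 9 to 11 per MACS sample, and the antisense gene that shares exon bases with Kcnab3 could not be told apart without strand. With no filter on low values limma gave a log2 fold change of −1.56 (SE 0.20, adjusted p = 3.0e-04). The ratio of Kcnab1 to Kcnab2 rose by a log2 difference of 0.93, with p = 0.0286 from the exact permutation test and 0.0317 adjusted. As Kcnab1 was higher and Kcnab2 lower in MACS samples without overlap, this p could only be the smallest possible and is no further support. Kcnab1 made up 15.4% ± 1.06 of the family sum in Dissociated and 25.8% ± 2.28 in MACS samples (SD, n = 4), and Kcnab2 84.3% ± 1.06 and 74.1% ± 2.27.

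Kcnmb1 encodes the beta 1 subunit of BK channels, best known from vascular smooth muscle, where it couples local calcium signals to relaxation. It was at 9.73, 9.47, 9.01 and 8.41 FPKM in Dissociated and at 17.1, 14.5, 14.5 and 12.8 FPKM in MACS samples. The groups did not overlap, and the log2 fold change was 0.68 (SE 0.10, adjusted p = 3.7e-04, limma). Markers of smooth muscle and pericytes moved in both directions in this comparison. Of 8 listed genes 6 were tested, of which 1, Rgs5, was called higher (log2 fold change 0.87, adjusted p = 0.0093, limma). Called lower were 3, and 5 were lower at adjusted p. The summed level of the list was 68.5 to 91.0 FPKM in Dissociated and 55.9 to 125 FPKM in MACS samples. Rgs5 alone was at 38.3 to 49.3 FPKM in Dissociated and 50.8 to 119 FPKM in MACS samples, so the MACS sum is mostly that of Rgs5. Tagln was listed at 0 in every MACS sample, and Acta2 reached 0.62 and Myh11 0.36 FPKM at most there. Endothelial markers summed to 38.2 to 50.5 FPKM in Dissociated and 11.4 to 68.1 FPKM in MACS samples. The part of smooth muscle, pericyte and endothelial cells in the rise of Kcnmb1 was not tested. At the estimated depth, Kcnmb1 rested on about 527 to 697 fragments per Dissociated and 745 to 991 per MACS sample.

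**Figure D4:**
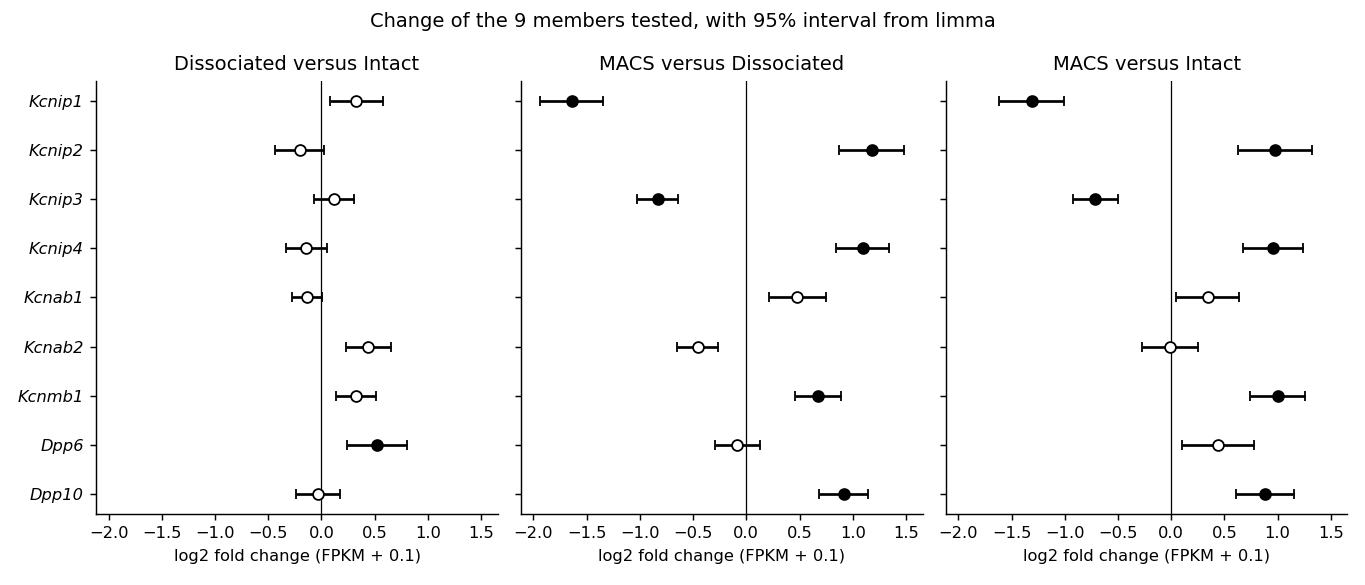
Log2 fold change on the scale of log2(FPKM + 0.1) for the 9 members tested, on the x axis, in 3 comparisons of groups. Points are estimates, bars are 95% intervals from limma, and filled points met all 3 criteria for a call. In MACS versus Dissociated, 4 filled points lie to the right of 0 and 2 to the left, and in Dissociated versus Intact the only filled point is Dpp6.

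The pore-forming partners were then read beside the auxiliary subunits. Among the Kv4 genes, Kcnd3 went from 27.9 ± 2.81 to 53.6 ± 10.2 FPKM (SD, n = 4) and was called higher (log2 fold change 0.93, standard error 0.14, adjusted p = 5.0e-04, limma). Kcnd1, the most abundant of them, went from 67.8 ± 5.89 to 83.3 ± 9.50 FPKM (SD, n = 4), a rise at adjusted p with a log2 fold change of 0.29 (adjusted p = 0.029, limma) that missed the fold criterion. Kcnd2 stayed under the minimum in both groups, at 0.81 ± 0.14 and 0.30 ± 0.07 FPKM (SD, n = 4). The KChIP sum was 2.07 ± 0.06 times the Kv4 sum in Dissociated and 2.19 ± 0.31 times in MACS samples (SD, n = 4), with overlapping ranges. The sum of the DPP-like genes was 1.57 ± 0.08 times the Kv4 sum in Dissociated and 1.35 ± 0.13 times in MACS samples (SD, n = 4). It was lower in every MACS sample, with a highest MACS value of 1.51 and a lowest Dissociated value of 1.52, and this difference was not tested.

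Of the 8 Kv1 genes 4 were tested. Kcna1 fell from 80.5 ± 4.89 to 9.41 ± 1.99 FPKM (SD, n = 4), a log2 fold change of −3.11 (SE 0.15, adjusted p = 5.1e-07, limma), and Kcna2 fell from 56.7 ± 1.88 to 19.0 ± 1.79 FPKM (log2 fold change −1.58, adjusted p = 6.2e-07, limma). Both encode low-threshold channels found at juxtaparanodes of myelinated axons. Kcna4, which encodes an inactivating Kv1 channel, rose from 6.12 ± 0.29 to 9.69 ± 0.55 FPKM (log2 fold change 0.65, adjusted p = 1.2e-04, limma). Kcna6 was at 39.0 ± 0.40 and 37.4 ± 3.92 FPKM (log2 fold change −0.07, 95% interval −0.25 to 0.12, adjusted p = 0.54, limma). The Kv beta sum was 1.81 ± 0.08 times the Kv1 sum in Dissociated and 3.56 ± 0.45 times in MACS samples (SD, n = 4), and these did not overlap, with a highest Dissociated value of 1.91 and a lowest MACS value of 3.17. Both sums had lower means in MACS samples. The Kv beta sum went from 332 ± 18.7 to 276 ± 31.5 FPKM and the Kv1 sum from 183 ± 4.93 to 77.6 ± 2.72 FPKM (SD, n = 4). The difference in this ratio was not tested. Kcnma1, the alpha subunit of the BK channel, had a log2 fold change of 0.19 with a 95% interval of −0.14 to 0.52 (adjusted p = 0.31, limma). Of its further beta subunit genes, Kcnmb4 had 0.05 with −0.34 to 0.44 (adjusted p = 0.83, limma). Kcnmb2, at 1.74 FPKM in Dissociated and 1.81 FPKM in MACS samples, had −0.02 with −0.63 to 0.59 (adjusted p = 0.97, limma). Kcnmb1 was 1.41 ± 0.20 times Kcnma1 in Dissociated and 1.98 ± 0.37 times in MACS samples (SD, n = 4), and these ranges overlapped by the ends 1.63 and 1.62.

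**Figure D5:**
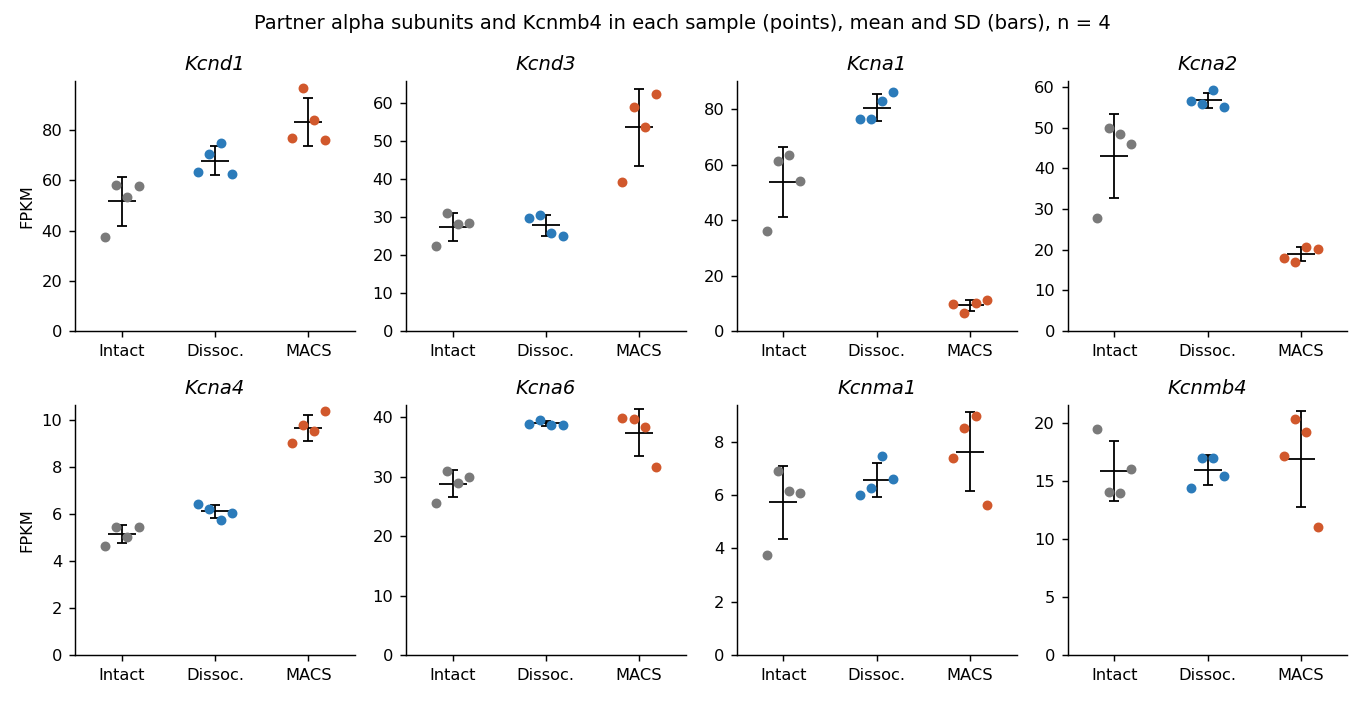
FPKM of 7 pore-forming partners and of the BK beta subunit gene Kcnmb4 in each sample, with 1 panel per gene, the 3 groups on the x axis and FPKM from 0 on the y axis. Points are samples and black bars are the mean and SD of 4 samples. Kcna1 and Kcna2 lie lowest in the MACS group, Kcnd3 and Kcna4 lie highest there, and Kcna6, Kcnma1 and Kcnmb4 overlap between Dissociated and MACS samples.

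Of 16 further auxiliary subunit genes of potassium channels, among them the remaining BK beta subunits, the KCNE genes, the sulfonylurea receptors and Amigo1, 5 were tested. None passed adjusted p in limma, and 1, Amigo1, passed at an unadjusted p under 0.05 (log2 fold change −0.34, adjusted p = 0.071). Their median log2 fold change was −0.34. Among 10 electrically silent Kv genes, whose products conduct only together with Kv2 subunits, 7 were tested, with Kcng2 and Kcng3 called higher and Kcns1 and Kcns3 lower. Kcns1 fell from 27.7 ± 4.16 to 7.04 ± 0.59 FPKM (log2 fold change −1.95, adjusted p = 1.4e-06, limma), and Kcng3 rose from 2.96 ± 0.36 to 6.06 ± 0.46 FPKM (1.01, adjusted p = 8.1e-05, limma). Kcng4 and Kcnv1 were lower at adjusted p without meeting the other criteria, so that 4 of 7 were lower and 2 higher at adjusted p.

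The comparison of Dissociated with Intact samples set dissociated cells against whole ganglia. These groups also differ in cells lost during preparation and in mice per sample, which cannot be told apart here from dissociation itself. The comparison shares the Dissociated samples with the one above, so that the values of each are given side by side and not set against each other. Of the 9 members tested, only Dpp6 was called, and it was higher. Over all 12392 genes tested, 4.29% were called higher and 2.76% lower. Dpp6 was at 57.8, 84.3, 85.8 and 80.1 FPKM in Intact replicates 1 to 4, all below the Dissociated samples, and its log2 fold change was 0.52 (SE 0.12, adjusted p = 0.019, limma). The lowest of these values belongs to Intact replicate 1, the library that stood apart. Without it the log2 fold change was 0.39 (adjusted p = 6.5e-04, limma), under the fold criterion. Without Dissociated replicate 3 or 4 it was 0.50 and 0.53 with an adjusted p of 0.055 and 0.050 (limma), just over the threshold.

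Kcnab2 and Kcnmb1 were also higher in Dissociated samples at adjusted p, but not by the fold criterion. At adjusted p alone, 3 members were thus higher and none lower, also with none lower at an unadjusted p under 0.05, where limma gave 14.8% and 7.79% of all genes. Higher without overlap were 3 of the members tested and lower 1, with 20.8% and 12% of all genes. Kcnab2 was at 176, 207, 218 and 225 FPKM in Intact samples, all below the Dissociated samples, with a log2 fold change of 0.44 (SE 0.09, adjusted p = 0.013, limma). It passed adjusted p in 17 of 19 alternatives, with a highest value of 0.078 (limma). Kcnmb1 was at 6.61, 7.82, 7.85 and 6.93 FPKM in Intact samples, again without overlap, with a log2 fold change of 0.32 (SE 0.08, adjusted p = 0.027, limma). That adjusted p was 0.071 without Intact replicate 4 and 0.076, 0.074 and 0.057 without Dissociated replicate 1, 2 and 3 (limma). Over all alternatives Kcnmb1 passed adjusted p in 12 of 19, with a highest value of 0.12 (limma). Kcnab3 was at 0.61, 0.84, 0.69 and 0.84 FPKM in Intact samples, below every Dissociated sample (exact two-sided permutation p = 0.0286, the smallest possible), while limma without the filter gave an adjusted p of 0.12.

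The KChIP genes and Dpp10 overlapped between Intact and Dissociated samples. Kcnip1 was at 9.71, 11.7, 12.4 and 11.2 FPKM in Intact samples, with a log2 fold change of 0.33 (adjusted p = 0.061, limma). That adjusted p was 0.042 without Dissociated replicate 1 (limma). The other 3 KChIP genes had log2 fold changes from −0.20 to 0.12, with 95% intervals reaching from −0.43 to 0.31, and Dpp10 had −0.03 with an interval of −0.24 to 0.17 (adjusted p = 0.82, limma). Kcnab1 was lower in all 4 Dissociated samples than in any Intact sample, where it was at 54.0, 59.6, 55.2 and 54.6 FPKM, with a log2 fold change of −0.13 (adjusted p = 0.14, limma). In this comparison, 5 of 8 markers of large neurons were called higher, 5 of 6 of fibroblasts were called lower and 4 of 6 of endothelial cells were called higher, and their part in the values of the members was not tested.

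MACS against Intact samples shares its samples with both comparisons above. Here too 4 members were called higher and 2 lower, where all 12234 genes tested gave 7.54% and 10.7%. The log2 fold changes of the members called were 0.97 for Kcnip2, 0.95 for Kcnip4, 1.00 for Kcnmb1, 0.88 for Dpp10, −1.31 for Kcnip1 and −0.71 for Kcnip3, with adjusted p between 8.8e-05 and 0.0010 (limma). At adjusted p alone 5 were higher and 2 lower, with 14.1% and 20.6% of all genes. All 6 called were without overlap between groups, 4 above and 2 below, as were 15.6% and 21.9% of all genes. Kcnip2 was at 60.5, 47.6, 46.4 and 50.2 FPKM in Intact samples and Kcnip4 at 72.6, 88.2, 76.5 and 77.6 FPKM. Kcnip3 was at 57.5, 66.9, 64.9 and 65.9 FPKM and Dpp10 at 48.1, 43.1, 37.6 and 42.7 FPKM. Kcnmb1 thus had a mean 2.02 times that of the Intact group. Dpp6 was higher at adjusted p (log2 fold change 0.44, adjusted p = 0.047, limma) without a call, and that adjusted p was over the threshold in 12 of 18 alternatives, at up to 0.11. Kcnab1 differed by 0.34 (95% interval 0.05 to 0.64, adjusted p = 0.071, limma), and without MACS replicate 4 by 0.46 (adjusted p = 0.0075). Kcnab2 differed by −0.01 (95% interval −0.28 to 0.25, adjusted p = 0.94, limma), and Kcnab3 was lower in every MACS than in every Intact sample (exact permutation p = 0.0286).

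Finally, the genes whose levels over the 12 samples were most like those of each member were listed by Pearson correlation of log2(FPKM + 0.1), among 8254 genes averaging 5 FPKM or more. The 12 samples fall into 3 groups and the 4 points of a group share their preparation, so the correlation is given as a description. For Kcnip1 these were Lynx1, which encodes a modulator of nicotinic receptors (r = 0.99), Clmp and Pnmal2. For Kcnip3 they were Lgi2, Cplx2, which encodes a complexin of synaptic vesicle release, and Hdac3, with r = 0.98 for each. For Kcnip2 they were Fez1, Arfgap3 and Trnp1 (r = 0.98 each), and for Kcnip4 A3galt2, Tmem164 and Grik1, which encodes a kainate receptor subunit (r = 0.99 each). Dpp10 was most like Lpcat3, Lats2 and Scn3b, which encodes a sodium channel beta subunit (r = 0.98 each). Dpp6 was most like Tbc1d9, Eif4g1 and Ttll5 (r = 0.98 to 0.99), and Kcnab2 like Chga, Ccdc92 and Nol6 (r = 0.98 to 0.99). Kcnmb1 was most like Zfp46, Lrrc8d and Nedd4l (r = 0.98 each) and Kcnab1 like Ankrd6, Armc8 and Prkcq, with lower r of 0.95 to 0.96.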

How the data were processed

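RNA from 12 DRG samples was sequenced in 3 groups of 4 (Intact, Dissociated and MACS), and groups were taken from the sample labels. Per the labels and methods, the authors aligned reads of 100 bases to mm10 with TopHat2, merged lanes with SAMtools and estimated FPKM per gene with Cufflinks 2.1.1. The deposited values are FPKM, already divided by transcript length and mapped fragments, and no counts were used. Multi-mapped reads may be shared between genes, and Cufflinks models isoforms, so FPKM of genes with several starts depend on that model. The annotation version and the strand setting are not given in the sources used here. Deposited starts count from 0 and were shifted by 1.

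FPKM were compared with limma 3.58.1 in R 4.3.3 after the transform log2(FPKM + 0.1), with the prior variance following intensity, on the 8 samples of the groups compared, for genes averaging 1 FPKM or more, and with Benjamini-Hochberg adjustment over all genes tested. The pseudocount makes fold changes of low genes too small. Calls also needed a log2 ratio of group means beyond 0.5 and over 5 FPKM on average in the higher group. These are the criteria of the study's methods, with limma in place of CuffDiff, which needs aligned reads. The study also removed genes that were higher in MACS samples and expressed in red blood cells. That step was not taken here, so the shares of all genes called higher in MACS samples may include such genes. Pairs of members were compared by exact permutation tests (scipy 1.17.1). The series calls the samples of a group biological replicates, and no source says whether any of them share a preparation day. Sequences were aligned with MAFFT 7.526 from GENCODE transcripts of mm10, and promoters are from RefSeq. Depth was estimated from the spacing of low FPKM of 3906 genes with 1 transcript and covers no error of its own. The scripts were tested on simulated data.

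The genes named are the 10 members, the genes of the partner, further auxiliary subunit, electrically silent and marker lists, and the 3 genes most like each member. Kcnab3os, A330015K06Rik, 5730480H06Rik, Gm20700 and Gm16334 were added as overlapping genes. Members, lists and tests were chosen with earlier results of these data known. Alternatives covered the pseudocount, filters, samples fitted, replicate block, scaling, averaging of Dissociated replicates 1 and 2, and leaving out each replicate.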

Additional observations from a re-analysis of the deposited data

Results flagged for a closer look

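Over 51 groups of 4 values, of the members and their tested partners, 4 held 1 sample far from the other 3 by Dixon's test at the 95% level, which chance flags in about 1 of 20 groups. Kcnab2 was at 308.6 FPKM in Dissociated replicate 3, where the other 3 samples lay between 268 and 272 FPKM. Dpp10 was at 64.0 FPKM in MACS replicate 1, where the others lay between 83.7 and 86.1 FPKM, and it was still above every Dissociated sample. Kcna6 was at 39.6 FPKM in Dissociated replicate 2 against 38.8 FPKM in the others, a small gap in a narrow group, and at 31.6 FPKM in MACS replicate 4 against 38.4 to 39.8 FPKM. MACS replicate 4 also had the highest globin share, 5.00% of summed FPKM, and the lowest median-ratio size factor, 0.96, and the part of these in its low values was not tested.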

How the results depend on the processing

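Of 504 fold changes of members recomputed under alternatives, 464 kept their direction and their side of an adjusted p of 0.05, 25 lost it, 7 gained it and 8 turned direction. The 6 members called in MACS versus Dissociated, and the 6 called in MACS versus Intact, kept direction and adjusted p in every alternative run, and every leave-out kept their calls. The turns were all of values near 0. Over leave-outs, Dpp6 in MACS versus Dissociated ran from −0.13 to 0.0099 (the latter without MACS replicate 4). Dpp10 in Dissociated versus Intact ran from −0.093 to 0.024, and was 0.024 without Intact replicate 1 and 0.0043 without Dissociated replicate 3. Kcnab2 in MACS versus Intact was 0.043 with median-ratio size factors and 0.0023 with red blood cell genes removed and samples rescaled. It ran from −0.089 to 0.034 over leave-outs (0.014, 0.030 and 0.034 without Intact replicate 3, Intact replicate 4 and MACS replicate 4). The change of Kcnip2 over Kcnip4 ran from −6.9e-05, without MACS replicate 2, to 0.19. With a log2 ratio beyond 1, members called were 2 higher and 1 lower in MACS versus Dissociated, 1 and 1 in MACS versus Intact and 0 in Dissociated versus Intact, and all genes called were 260 and 879, 186 and 825, and 42 and 123, as the stricter limit requires. With a higher group mean above 1 FPKM, genes called lower were 2352, 2206 and 665 in these comparisons. In Dissociated versus Intact no member was called after quantile normalization. The same held with red blood cell genes removed and every sample rescaled to the same summed FPKM. That alternative left 343 genes called higher, and its rescaling changes the values of all genes. Globin genes took at most 0.21% of summed FPKM in Intact and 0.13% in Dissociated samples. Leaving out 1 replicate gave 0 to 1 members higher and 187 to 334 genes lower (the lowest without Dissociated replicate 4, with 224 and 203 without Dissociated replicates 1 and 3). The cause of these shifts was not tested. Scaling changed the balance of calls over all genes. In MACS versus Dissociated, 981 genes were called higher and 1505 lower as deposited, 1188 and 1340 with size factors and 1382 and 1285 with quantile normalization, which moved the median of all genes from −0.04 to 0.10. In MACS versus Intact the split went from 922 and 1313 to 1248 and 1183 and the median from −0.04 to 0.13.

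The replicate numbers do not pair samples across groups by the labels, and the samples did not deviate together by number (correlations of −0.14 to 0.07, with 1, 0 and 0 of 4 samples closest to their own number). With a replicate block, 991 genes were called higher and 1516 lower in MACS versus Dissociated, 541 and 358 in Dissociated versus Intact, and 915 and 1314 in MACS versus Intact. Of the 10 pairs of members, 0 passed under the block or with a replicate left out, where the smallest exact p values are 0.125 and 0.0571, so that these say nothing of stability. Depth limits Kcnab3 most, as its MACS values rest on an estimated 9 to 11 fragments.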
